A study of Gallus gallus with 4 samples.

Results

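The nuclear-encoded genes of oxidative phosphorylation were followed through the cell types of the chick retina and 4 treatments. Members were all genes whose symbol begins with NDUF, UQCR, ATP5, COX4, COX5, COX6, COX7 or COX8, together with *SDHA*, *SDHB*, *SDHC*, *SDHD* and *CYC1* where listed. This gave 73 of the 30108 genes in the deposited tables. Of these, 30 were subunits and 8 assembly factors of complex I, 3 were subunits of complex II and 7 of complex III. A further 9 genes were placed in complex IV and 16 in complex V. *NDUFA4* was placed in complex IV, to which its protein belongs. Several genes of complex V carry older symbols, and *ATP5G3* is the gene now called *ATP5MC3*. *ATP5S*, placed in complex V by its symbol, is now called *DMAC2L*.

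Oxidative phosphorylation is carried out in the inner mitochondrial membrane. Complexes I and II pass electrons from NADH and succinate to ubiquinone, complex III passes them to cytochrome c, complex IV passes them to oxygen, and complex V, the ATP synthase, uses the resulting proton gradient to make ATP. Most subunits are encoded in the nucleus and a few in mitochondrial DNA, so both genomes contribute to complexes I, III, IV and V, whereas complex II is wholly nuclear. In the retina, photoreceptors hold dense mitochondria in their inner segments, and Müller glia (MG), the support cells that span the retina, are known for a strong use of glycolysis.

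The retinas were from wild-type chicks and each treatment was measured as 1 droplet library (10x Genomics), so that there were no replicates. The treatments were clodronate+NMDA, NMDA, clodronate+saline and saline. Clodronate liposomes, which kill phagocytic microglia, or saline were given at P6, and NMDA, an excitotoxin that damages inner retinal neurons, or saline was given at P10. Retinas were collected 24 h later. The libraries held 8050 to 11434 barcodes and 20614413 to 27033560 unique molecular identifiers (UMIs, each standing for 1 captured transcript), of which the 73 genes made 2.09% to 2.49%. Between 101 and 214 barcodes occurred in both libraries of a pair. With limits of 200 to 2500 genes and at most 5% mitochondrial UMIs, 5781 to 9681 cells per library were kept and clustered. Microglia were checked as barcodes with at least 2 of *C1QA*, *C1QB* and *C1QC*. There were 0 in clodronate+NMDA, 28 in NMDA, 0 in clodronate+saline and 23 in saline.

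Clusters were named from marker lists, and each class name below means cells that are like that class by those markers. The MG class held 343 cells in clodronate+NMDA, 386 in NMDA, 440 in clodronate+saline and 811 in saline. It consisted of 2 clusters that divided by treatment. The one led by *GLUL*, *OPTC* and *GPR37L1* held 811 of the saline and 433 of the clodronate+saline cells, and the one led by *LRRC15*, *S100A6* and *WNT6* held 386 of the NMDA and 342 of the clodronate+NMDA cells. The cluster named for rods also had raised cone markers. A cluster led by hemoglobin genes, which also had raised markers of MG and microglia, and 4 clusters without a name are not described.

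Summed over the 73 genes, the share of a cell class's UMIs averaged highest in photoreceptors and lowest in bipolar cells. It averaged 2.71% ± 0.239 in cones, 2.60% ± 0.224 in rods, 2.53% ± 0.222 in oligodendrocytes, 2.41% ± 0.357 in MG, 2.34% ± 0.156 in retinal ganglion cells, 2.21% ± 0.145 in horizontal cells, 1.996% ± 0.0654 in amacrine cells and 1.93% ± 0.114 in bipolar cells (SD over 4 libraries, which are 4 treatments and not replicates). Cones were above bipolar cells in 4 of 4 libraries, by 1.33- to 1.52-fold, and above rods in 4 of 4, by 1.02- to 1.09-fold. The photoreceptor classes depended on the limits. Without the limit on mitochondrial UMIs, 1045 to 1583 cells per library were named cones, where 148 to 265 were named with it. Cells named rods fell to 142 to 325 per library without that limit, from 293 to 551 with it. Dropping the limit removed no cell, so many cells named rods with it lost that name. Values for rods below are those of the class named with the limit, unless another setting is given. At resolution 0.4 there were 0 rods as a separate class. Cones remained above bipolar cells in 4 of 4 libraries under both settings, by 1.44- to 1.67-fold and 1.30- to 1.44-fold, but were above rods in 0 of 4 without the mitochondrial limit, so no order between cones and rods is given. Neighbours in this order mostly lay within each other's spread. Cones were above oligodendrocytes in 3 of 4 libraries, MG above retinal ganglion cells in 2 of 4, and amacrine cells above bipolar cells in 3 of 4.

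**Figure D1:**
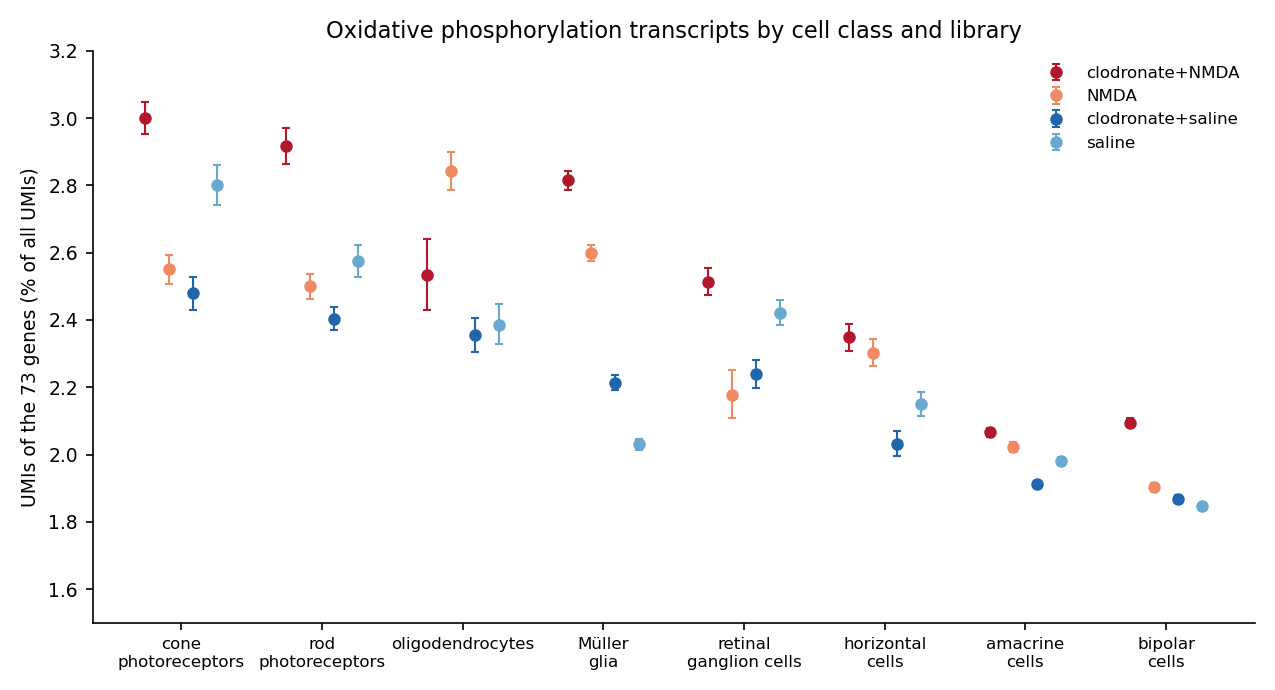
Share of all UMIs (%, y axis, which does not start at 0) that fell in the 73 genes, for each cell class (x axis, ordered by mean) and library (colours). Bars are exact Poisson 95% intervals and cover counting error only. In MG the clodronate+NMDA and NMDA libraries lie at 2.82% and 2.60%, above clodronate+saline at 2.21% and saline at 2.03%.

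Of the 8 classes MG varied most between libraries. Their share was 2.82% in clodronate+NMDA, 2.60% in NMDA, 2.21% in clodronate+saline and 2.03% in saline. Among the 8 classes MG thus ranked 3 in clodronate+NMDA, 2 in NMDA, 5 in clodronate+saline and 6 in saline. The shift held for the middle of the distribution over cells. The median MG had 2.74% of its UMIs in these genes in clodronate+NMDA (quartiles 2.45% and 3.04%), 2.59% in NMDA (2.36% and 2.79%), 2.19% in clodronate+saline (1.94% and 2.47%) and 2.02% in saline (1.83% and 2.19%). The upper quartile in saline was below the lower quartile in NMDA.

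The excess over bipolar cells was spread over many genes in cones, and by the median member also in rods. Of the 72 members with at least 200 UMIs in cones and bipolar cells together, 20 were at least 1.5-fold higher in cones in mean CPM (UMIs of a gene per 1000000 UMIs of the class) and higher in all 4 libraries, where 13.4% of all genes were. In the other direction 2 members were called, against 32.4% of all genes. The median member was 1.35-fold higher in cones, and the median gene was 0.821-fold. Between rods and bipolar cells, 14 of 72 members were higher by the same rule, against 13.4% of all genes, and 1 was lower, against 23.7%. The median member was 1.27-fold higher in rods, and the median gene was 0.892-fold. The share of members called higher was therefore close to the background in rods and above it in cones, and few members were lower in either. The background was not matched to the members in UMIs.

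The 3 genes that led in cones belonged to complexes I and V. *NDUFA10*, an accessory subunit of complex I (chr7:6585215-6627337, GRCg7b), had 421, 388, 474 and 474 CPM in cones in clodronate+NMDA, NMDA, clodronate+saline and saline. It had 137, 146, 138 and 119 CPM in bipolar cells of the same libraries, and its lowest value in cones was above its highest value in every other class. In rods, where the same 3 genes led, *NDUFA10* averaged 320 ± 5.92 CPM (SD, 4 libraries). *ATP5F1AZ*, the alpha subunit of the ATP synthase head encoded on chromosome Z, averaged 711 ± 113 CPM in cones and 507 ± 101 CPM in rods (SD, 4 libraries), against a median of 229 CPM over the other classes for each. *ATP5MC1*, which encodes the c subunit of the membrane rotor, averaged 1570 ± 344 CPM in cones, 1388 ± 246 CPM in rods and 460 ± 37.1 CPM in bipolar cells. The same protein sequence of subunit c is also made from *ATP5G3*. The ratio of *ATP5MC1* to *ATP5G3* UMIs was 2.66 to 3.70 in cones and 2.83 to 3.51 in rods. In horizontal cells it was 0.914 to 1.08, so photoreceptors and horizontal cells did not overlap in any library.

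Other classes had single genes that stood out. In MG, *NDUFB2*, an accessory subunit of the membrane arm of complex I, had 1187, 964, 1044 and 952 CPM in clodronate+NMDA, NMDA, clodronate+saline and saline. All 4 values were above those of every other class, as they also were for *ATP5D*, a subunit of the central stalk of ATP synthase. *UQCRHL*, of the hinge protein of complex III, averaged 476 ± 110 CPM in MG against a median of 274 CPM over the other classes. *NDUFAF8*, an assembly factor of complex I, averaged 161 ± 42.4 CPM in MG, against 95.7 CPM. In oligodendrocytes *COX6A1* of complex IV averaged 1719 ± 236 CPM against a median of 862 CPM elsewhere, *UQCRFS1*, the Rieske iron-sulfur protein of complex III, 346 ± 52.1 CPM against 158 CPM, and *NDUFS4* of complex I 521 ± 125 CPM against 263 CPM. All 3 were above every other class in all libraries.

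Bipolar cells, with the lowest summed share, had the highest *COX7A2L*. This gene, whose product takes part in joining complexes III and IV into supercomplexes in mammals, had 261, 191, 208 and 197 CPM in bipolar cells in clodronate+NMDA, NMDA, clodronate+saline and saline, and averaged 78.9 ± 12.8 CPM in MG. Its relative *COX7A2*, a subunit of complex IV, averaged 381 ± 41.6 CPM in bipolar cells and 507 ± 81.6 CPM in MG. *NDUFA9* averaged 115 ± 11.0 CPM in bipolar cells and 96.8 ± 11.0 CPM in amacrine cells, against medians of 61.8 CPM over the other classes. The assembly factors *NDUFAF6* in bipolar cells (29.3 ± 5.88 CPM) and *NDUFAF1* in amacrine cells (85.5 ± 9.71 CPM) were 2.09- and 1.57-fold above the median of the other classes. *NDUFAF7* in amacrine cells was 1.42-fold above it. In retinal ganglion cells the 3 leading genes were *NDUFB3*, *NDUFS7* and *NDUFS6*, at 1.85-, 1.64- and 1.57-fold, and in horizontal cells *ATP5S*, *NDUFA12* and *NDUFA5*, at 1.91-, 1.70- and 1.59-fold. *NDUFA12* in horizontal cells was above every other class in all libraries.

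Counted over members, the highest mean was in cones for 25 genes, in oligodendrocytes for 14, in MG for 13, in horizontal cells for 8, in retinal ganglion cells for 5, in bipolar cells for 4 and in amacrine cells and rods for 2 each. The same count was not made over all genes, nor was that of genes above every other class in all libraries. The counts therefore have no background to be read against. They were not made under the other limits on cells, and give no order between cones and rods. Oligodendrocytes held 20 cells in clodronate+NMDA, so their mean there rests on few cells. Averaged over classes, the members with most UMIs in their complex were *NDUFA13* in complex I (761 CPM), *SDHD* in complex II (179 CPM), *UQCR10* in complex III (546 CPM), *COX7C* in complex IV (1087 CPM) and *ATP5L* in complex V (947 CPM), and *NDUFAF3* among the assembly factors (131 CPM). These CPM are tags from the 3′ ends of transcripts and were not divided by gene length. *ATP5A1W*, the W-linked copy of the alpha subunit, had 6 UMIs in all barcodes of all libraries and 0 in MG.

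The first question for MG was how the genes differed 24 h after damage. In NMDA retinas, compared with saline, oxidative phosphorylation transcripts were higher in MG by 0.36 on the log2 scale when summed (95% interval 0.34 to 0.37, from an exact conditional binomial, for counting error only). Genes of the ATP synthase led: *ATP5G3*, *ATP5B* and *ATP5MC1* were more than 2-fold higher. *SDHD* and *NDUFS4* stood at the other end and were lower. With 1 library per treatment, the difference was not tested.

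Of 70 members with at least 50 UMIs in the pair, 59 lay above 0 and 11 below, with a median of 0.25. The median of all 8349 genes was 0.07, and 53.8% of them lay above 0. At least 1.5-fold higher were 17 members (24.3%), and 26.0% of all genes were. At least 1.5-fold lower was 1 member (1.43%), and 23.6% of all genes were. The members were thus called higher about as often as any gene and called lower far less often. The genes of this background were not matched to the members in UMIs. Genes with few UMIs pass 1.5-fold more easily by counting error. The interval lay above 0 for 40 members and below 0 for 5, which was not counted over all genes. *NDUFAF6*, *ATP5S* and *ATP5A1W* were under the minimum.

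The ATP synthase had the largest summed shift of the complexes. Its genes made 0.838% of MG UMIs in NMDA and 0.574% in saline, a log2 ratio of 0.55 (0.51 to 0.58), with 12 of 14 members above 0 and 6 at least 1.5-fold higher. Complex III followed at 0.43 (0.38 to 0.49) with 7 of 7 above 0, complex IV at 0.355 (0.32 to 0.39) with 8 of 9, and complex I at 0.20 (0.17 to 0.23) with 24 of 30. The complex I assembly factors came to 0.07 (-0.07 to 0.20). Complex II was lower, at -0.22 (-0.36 to -0.07). Of all genes, 53.8% lay above 0 and 26.0% were at least 1.5-fold higher, a background not matched to the members in UMIs.

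Within the ATP synthase, the rotor ring and the catalytic head were highest. *ATP5G3* (subunit c; chr7:16271229-16274382, GRCg7b) had 516 CPM in NMDA and 202 CPM in saline, a log2 ratio of 1.35 (1.21 to 1.5). *ATP5B*, the catalytic beta subunit (chr34:1539623-1542570), had 732 and 348 CPM in NMDA and saline, a log2 ratio of 1.07 (0.95 to 1.19). *ATP5MC1*, the other gene for subunit c, had 620 and 302 CPM, at 1.04 (0.91 to 1.16). Both genes for subunit c were thus among the 3 with the highest ratios, and the ratio of *ATP5MC1* to *ATP5G3* UMIs in MG was 0.977 in clodronate+NMDA, 1.20 in NMDA, 1.36 in clodronate+saline and 1.49 in saline.

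*ATP5F1AZ*, the alpha subunit, had 207 CPM in NMDA and 105 CPM in saline, at 0.98 (0.76 to 1.20). *ATP5J2* and *ATP5L*, which encode small membrane subunits f and g, were at 0.76 (0.66 to 0.86) and 0.71 (0.64 to 0.78). Not all of the enzyme moved this way. *ATP5D*, of the central stalk, had 536 CPM in NMDA and 641 CPM in saline, at -0.26 (-0.37 to -0.15).

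In the electron transport complexes, *NDUFB6* and *NDUFV3*, accessory subunits of complex I, were at 0.94 (0.80 to 1.09) and 0.91 (0.68 to 1.13). *NDUFB6* had 423 CPM in NMDA and 220 CPM in saline, and *NDUFV3* had 182 and 97.2 CPM. *COX7C*, a small subunit of complex IV encoded on chromosome Z, had 1871 CPM in NMDA and 1125 CPM in saline, at 0.73 (0.67 to 0.80). *COX4I1*, the largest of the nuclear-encoded subunits of complex IV, had 520 and 519 CPM, a log2 ratio of 0.00 (-0.11 to 0.12), and *COX7B* was at -0.03 (-0.15 to 0.09). *NDUFB2* was at 0.02 (-0.07 to 0.10) and *NDUFB10* at -0.10 (-0.31 to 0.10). Subunits of 1 complex therefore differed from each other by more than their intervals.

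The subunits of complex II differed in direction. *SDHA*, the catalytic flavoprotein, had 75.4 CPM in NMDA and 40.02 CPM in saline, at 0.92 (0.56 to 1.27), and *SDHD*, a membrane anchor (chr24:6202216-6207007), had 181 CPM and 266 CPM, at -0.56 (-0.75 to -0.37). *SDHB*, the iron-sulfur subunit between them, had 62.9 CPM in NMDA and 64.9 CPM in saline. *NDUFS4*, an accessory subunit of complex I on chromosome Z whose loss in mice causes a disease like Leigh syndrome, had 280 CPM in NMDA and 392 CPM in saline, at -0.49 (-0.64 to -0.34). *NDUFA2* was at -0.18 (-0.34 to -0.03). The assembly factor *NDUFAF5* was the 1 member called lower, at -0.83 (-1.61 to -0.11), from 21 UMIs in NMDA and 72 in saline, and it was not called without the upper limit on genes per cell (-0.22), without the limit on mitochondrial UMIs (-0.47) or at resolution 0.4 (-0.43). Of the 5 members placed on chromosome Z, *COX7C*, *ATP5F1AZ* and *ATP5I* (0.535) were higher, *NDUFAF2* was at 0.03 and *NDUFS4* was lower.

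**Figure D2:**
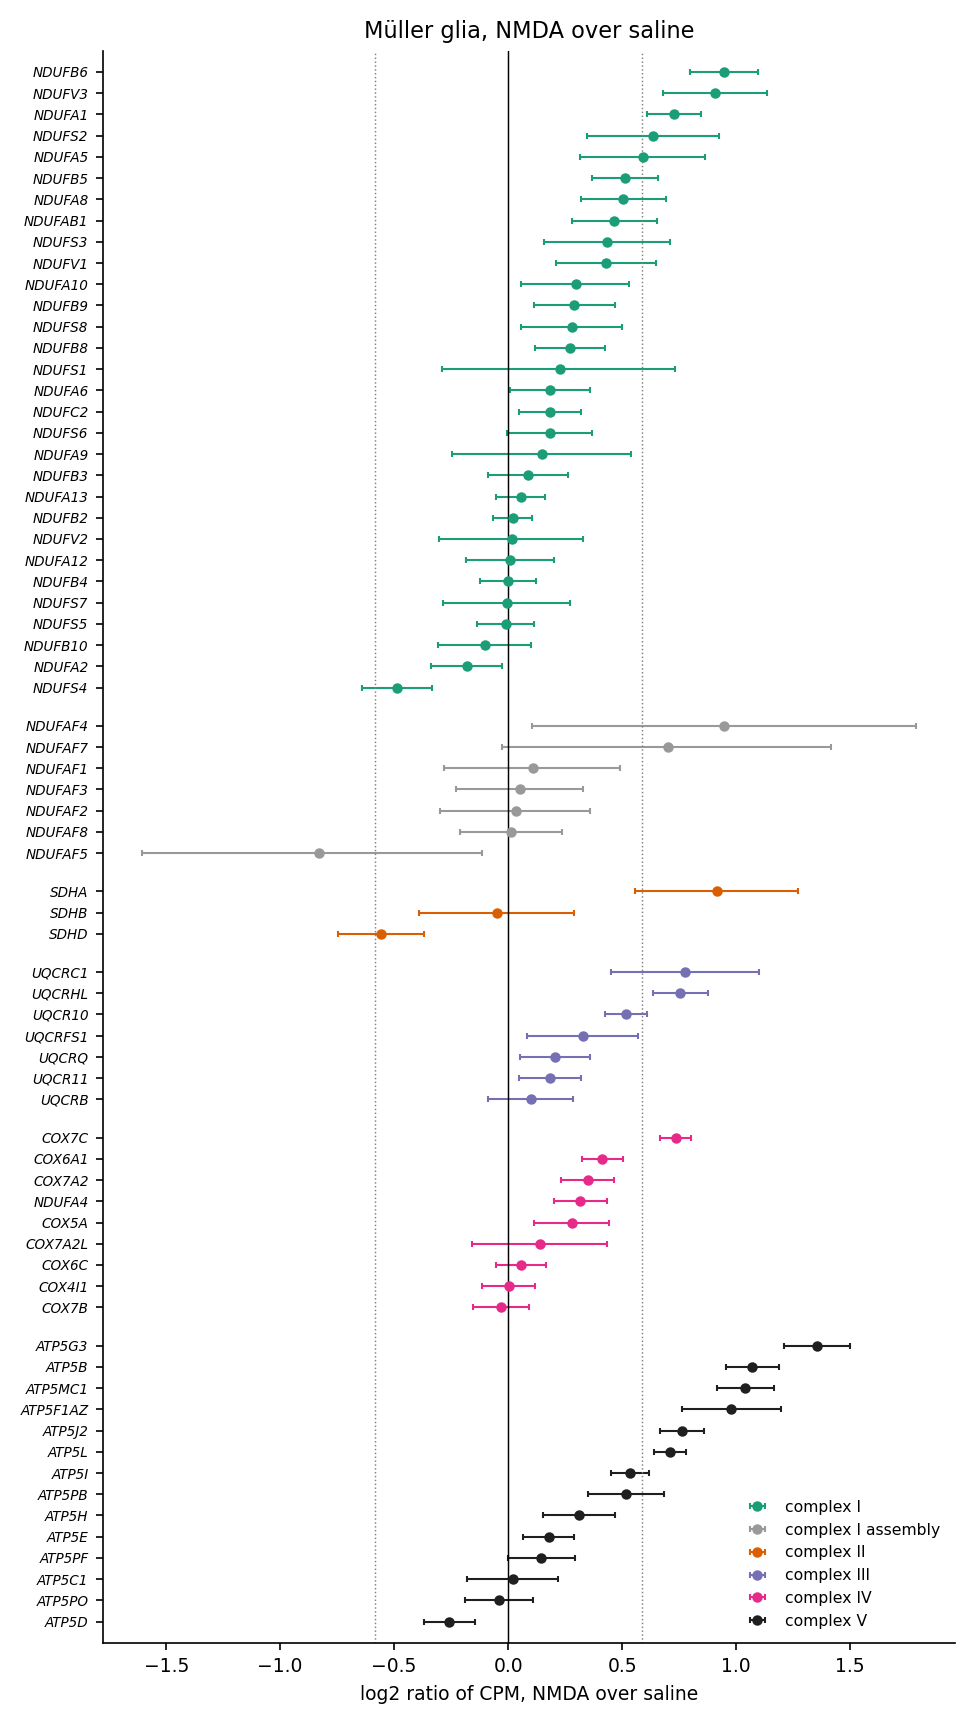
Log2 ratio of CPM in MG, NMDA over saline (x axis), for the 70 members with at least 50 UMIs (y axis), grouped by complex, with exact conditional binomial 95% intervals. Dotted lines mark 1.5-fold; 17 members lie beyond the right line, led by *ATP5G3* at 1.35, and only *NDUFAF5*, at -0.83, beyond the left.

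Markers of other cells also differed in these MG. Summed over 9 cone markers, MG had 852 CPM in NMDA and 299 CPM in saline, and over 7 rod markers 1405 and 260 CPM. For comparison, clodronate+NMDA had 1254 and 489 CPM and clodronate+saline 182 and 163 CPM of the cone and rod lists. Of the cone list, 0 markers were at 0 in both NMDA-treated libraries and 1 in each of the others, and of the rod list 0 in every library. The 5 erythrocyte markers summed to 0.00, 146, 1.11 and 4.15 CPM in clodronate+NMDA, NMDA, clodronate+saline and saline. Their part in the result was not tested. The MG's own 10 markers summed to 27780, 24530, 41500 and 47780 CPM in the same libraries. Median UMIs per MG were 4138, 4862, 4140 and 4129.

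The other pair of libraries that differ by NMDA shared no library with the first. In MG of clodronate+NMDA retinas, compared with clodronate+saline, the summed log2 ratio was 0.35 (0.33 to 0.37). Of 68 members with at least 50 UMIs, 54 were above 0, with a median of 0.23 against 0.03 for all genes. Of all genes, 52.2% were above 0. At least 1.5-fold higher were 11 members, where 19.0% of all genes were, and 1 was lower, where 18.6% of all genes were. The ATP synthase again had the largest sum, at 0.55 (0.51 to 0.59), and complex II was at -0.59 (-0.78 to -0.41).

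Gene by gene the 2 pairs were alike for many members. Over the 68 genes measured in both pairs, 48 were above 0 in both and 6 below 0 in both. Most members lay above 0 in each pair, so many would be above 0 in both without any likeness gene by gene. Pearson's r was 0.613 and Spearman's rho 0.579. These are across genes of the same cells and genes are not independent replicates. The same was not computed over all genes. *ATP5G3* was at 0.95 (0.80 to 1.12) in the clodronate-treated pair, *ATP5B* at 0.81 (0.66 to 0.95), *ATP5F1AZ* at 0.77 (0.53 to 1.01) and *ATP5L* at 0.82 (0.74 to 0.91). *NDUFV3* led this pair with 245 CPM in clodronate+NMDA and 108 CPM in clodronate+saline, at 1.19 (0.93 to 1.45). *COX7C*, *ATP5I* and *NDUFA1* were at 0.69, 0.63 and 0.66.

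*SDHD* was lowest, with 153 CPM in clodronate+NMDA and 278 CPM in clodronate+saline, at -0.87 (-1.11 to -0.63). *NDUFS4* was at -0.27 (-0.47 to -0.08) and *COX4I1* at -0.16 (-0.30 to -0.01). Both lay slightly above 0, at 0.03 and 0.08, when no upper limit on genes per cell was set. A few genes differed between the pairs. *SDHA* had 46.9 CPM in clodronate+NMDA and 48.2 CPM in clodronate+saline, *COX7A2L* was at -0.56 (-0.96 to -0.16), *NDUFA12* at -0.26 (-0.50 to -0.02) and *NDUFB9* at -0.22 (-0.44 to -0.01).

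**Figure D3:**
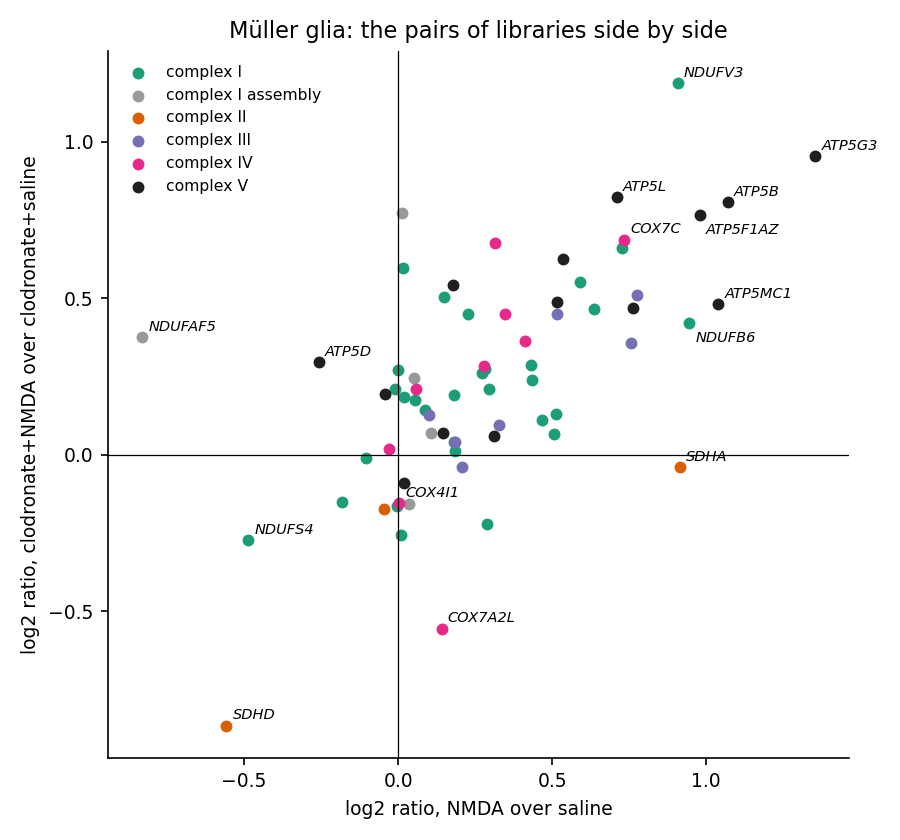
Log2 ratios of 68 members in MG, NMDA over saline on the x axis and clodronate+NMDA over clodronate+saline on the y axis, coloured by complex. The pairs share no library; 48 genes lie above 0 on both axes, with ATP synthase genes at the upper right and *SDHD* at the lower left.

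**Figure D4:**
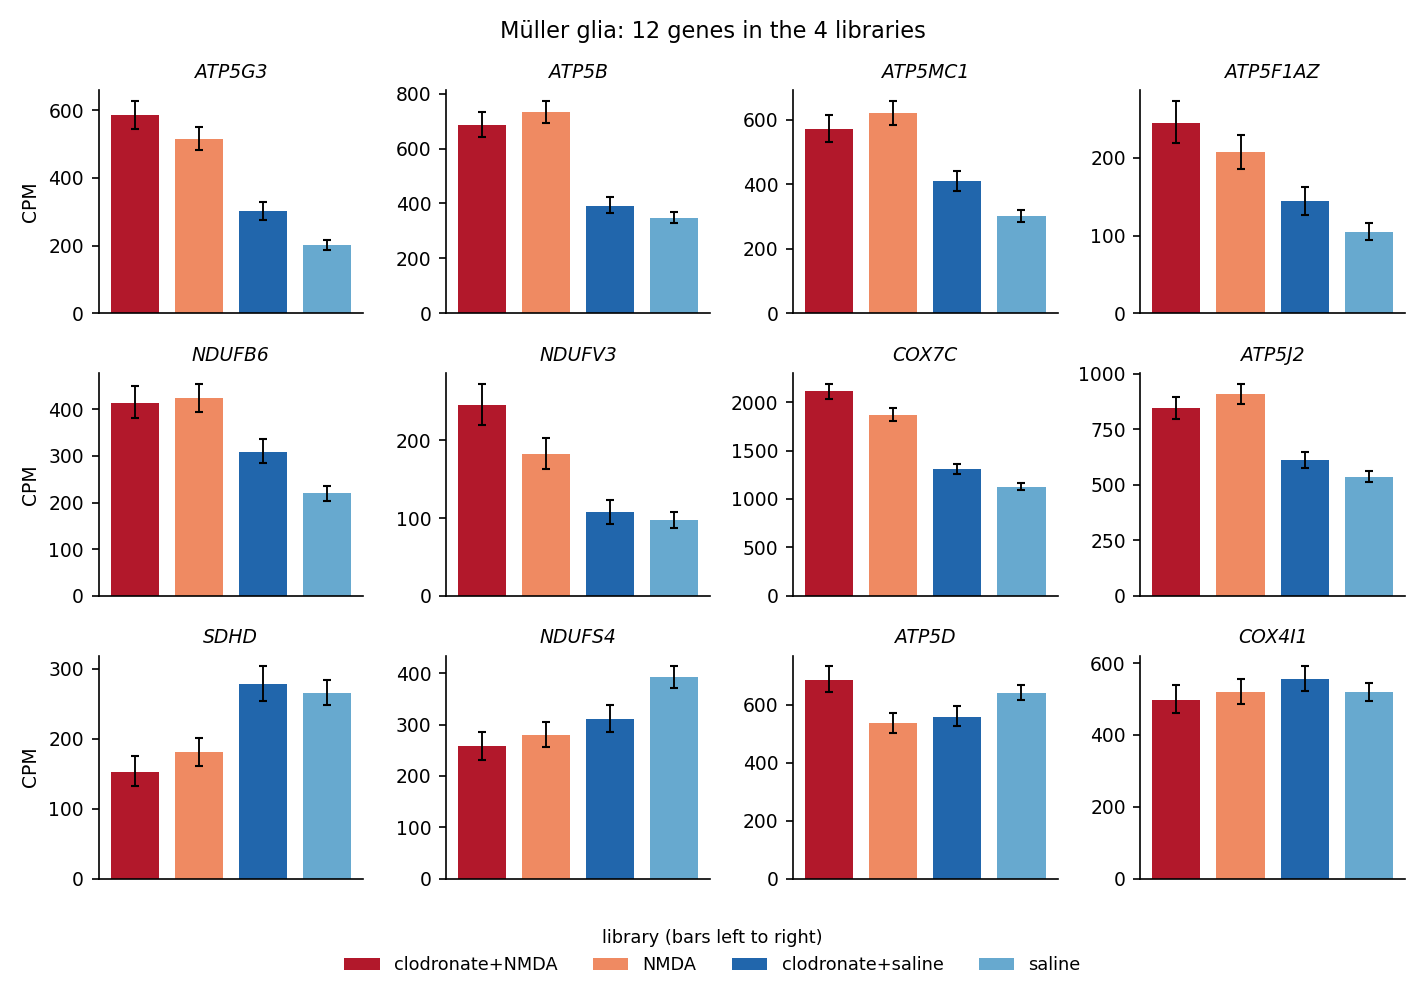
CPM in MG (y axes, starting at 0) of 12 members in the 4 libraries, with exact Poisson 95% intervals. *ATP5G3* stands at 585, 516, 302 and 202 CPM in clodronate+NMDA, NMDA, clodronate+saline and saline, *SDHD* at 153, 181, 278 and 266 CPM, and *COX4I1* at 498 to 555 CPM.

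The second question was how MG of undamaged retinas differed with clodronate liposomes, which deplete microglia. Empty liposomes were not among the treatments. Loss of microglia therefore cannot be told apart from other effects of the liposomes or from differences between libraries. The differences in clodronate+saline, compared with saline, were small and mostly upward. The sum was 0.12 higher on the log2 scale (0.11 to 0.14), and the median member was at 0.16 where the median gene was at 0.08. The sum was 0.02 with TMM scaling, which lowers every gene of this comparison by 0.10. None of 70 members was called in either direction by the 1.5-fold rule (0 higher, 0 lower), where 12.1% of all genes were higher and 7.38% were lower. *NDUFAF6*, *NDUFAF4* and *ATP5A1W* were under the minimum.

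The genes at the top were *ATP5G3*, with 302 CPM in clodronate+saline and 202 CPM in saline, at 0.58 (0.41 to 0.74), *NDUFB6* at 0.49 (0.33 to 0.65), *ATP5F1AZ* at 0.46 (0.22 to 0.69) and *ATP5MC1* at 0.44 (0.30 to 0.58). *NDUFB9*, *UQCR10*, *ATP5I* and *COX7C* were at 0.39, 0.27, 0.25 and 0.22. This comparison and that of NMDA with saline share the saline library, so genes placed alike in both are not independent of it. At the lower end, *NDUFA4* had 354 CPM in clodronate+saline and 460 CPM in saline, at -0.38 (-0.52 to -0.25), *NDUFS4* was at -0.33 (-0.48 to -0.19) and *ATP5D* at -0.20 (-0.31 to -0.09). *COX7A2*, *NDUFB4*, *NDUFA2*, *COX6C* and *NDUFV2* lay at -0.12, -0.11, -0.11, -0.04 and -0.24, each with an interval that held 0.

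The third question was how MG differed with clodronate liposomes after damage, with the same limit. In MG of clodronate+NMDA retinas, compared with NMDA, the sum was 0.12 higher (0.10 to 0.14), and 0.03 with TMM scaling. The median member was at 0.09 and the median gene at 0.05. Of 67 members, 1 was at least 1.5-fold higher, where 14.8% of all genes were, and 1 was lower, where 10.9% of all genes were. The one called higher was *NDUFAF8*, with 224 CPM in clodronate+NMDA and 145 CPM in NMDA, at 0.63 (0.38 to 0.88). The one called lower was *SDHA*, with 46.9 and 75.4 CPM, at -0.69 (-1.14 to -0.24). Without the upper limit on genes per cell neither passed 1.5-fold, with *NDUFAF8* at 0.30 and *SDHA* at -0.076, and *NDUFAF8* was at 0.54 with TMM scaling and 0.58 without the limit on mitochondrial UMIs. *NDUFAF4*, *NDUFAF5*, *NDUFAF6*, *NDUFAF7*, *ATP5S* and *ATP5A1W* were under the minimum.

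This comparison and that of NMDA with saline share the NMDA library with opposite signs, so their values for a gene are not independent. *ATP5E* and *ATP5D*, both of the central stalk of ATP synthase, were at 0.46 (0.34 to 0.59) and 0.36 (0.22 to 0.49), and *ATP5I*, which encodes the membrane subunit e, at 0.34 (0.25 to 0.43). *ATP5D* had 686 CPM in clodronate+NMDA and 536 CPM in NMDA. The complex I genes *NDUFS5*, *NDUFV3*, *NDUFB3* and *NDUFB2* were at 0.48, 0.43, 0.36 and 0.30. Lower were *COX7A2L* at -0.50 (-0.90 to -0.10), *UQCRQ* at -0.26 (-0.46 to -0.07), *NDUFA6* at -0.27 (-0.49 to -0.04), *UQCRHL* at -0.16 (-0.30 to -0.02) and *NDUFB5* at -0.17 (-0.34 to -0.00). *ATP5J2* at -0.10 and *SDHD* at -0.24 had intervals that held 0.

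Neurons and the remaining classes showed smaller sums after NMDA than MG did. Compared with saline, the NMDA library was at 0.04 (0.03 to 0.06) in bipolar cells, 0.03 (0.01 to 0.04) in amacrine cells and 0.10 (0.06 to 0.13) in horizontal cells. It was at 0.25 (0.21 to 0.30) in oligodendrocytes. Cones were at -0.14 (-0.17 to -0.10), rods at -0.04 (-0.08 to -0.01) and retinal ganglion cells at -0.15 (-0.20 to -0.10). The retinal ganglion cells of the NMDA library were few and shallow, 74 cells with a median of 1510 UMIs, against 166 cells with 4810 in saline. Some of these small sums took the other sign under other settings. Amacrine cells were at -0.062 with TMM scaling and rods at 0.091 without the limit on mitochondrial UMIs. Retinal ganglion cells were at 0.06 without the upper limit on genes, where 499 NMDA and 385 saline cells had that name. In clodronate+NMDA over clodronate+saline, every class lay above 0, so the upward sign in that pair was not particular to MG. There MG were at 0.35, rods at 0.28, cones at 0.275 and horizontal cells at 0.21. Retinal ganglion cells were at 0.17, bipolar cells at 0.165, amacrine cells at 0.11 and oligodendrocytes at 0.105.

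In bipolar cells, 0 of 72 members were at least 1.5-fold higher in NMDA than in saline, where 5.86% of all genes were, and 0 were lower, where 5.91% were. In amacrine cells 2 of 72 were higher, where 14.3% of all genes were, and 0 lower, where 9.12% were. Those 2 were the assembly factors *NDUFAF4* and *NDUFAF7*. The genes that led in MG had smaller ratios in these neurons, a difference that was not tested. *ATP5G3* in amacrine cells had 405 CPM in NMDA and 328 CPM in saline, at 0.30 (0.20 to 0.41), and *ATP5B* had 771 and 604 CPM, at 0.35 (0.27 to 0.43). *ATP5MC1* in amacrine cells had 497 CPM in both libraries. In bipolar cells *ATP5G3*, *ATP5B* and *ATP5MC1* were at 0.29, 0.17 and 0.16. *SDHD* was at 0.21 (0.08 to 0.33) in bipolar cells and 0.30 (0.12 to 0.47) in amacrine cells, opposite to MG.

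In oligodendrocytes *ATP5G3* had 640 CPM in NMDA and 276 CPM in saline, at 1.22 (0.82 to 1.62), and *SDHD* was at -0.56 (-1.05 to -0.07), as in MG. In the clodronate-treated pair of oligodendrocytes *ATP5G3* was at -0.05 (-0.79 to 0.64), where clodronate+NMDA held 20 cells. The NMDA pair included oligodendrocytes of 2 clusters, 1 of which also had raised *GPR37L1*, *VIM*, *FABP9* and *TGFB2*, which are on the MG marker list, and held 43 of the 79 NMDA and 29 of the 74 saline cells.

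**Figure D5:**
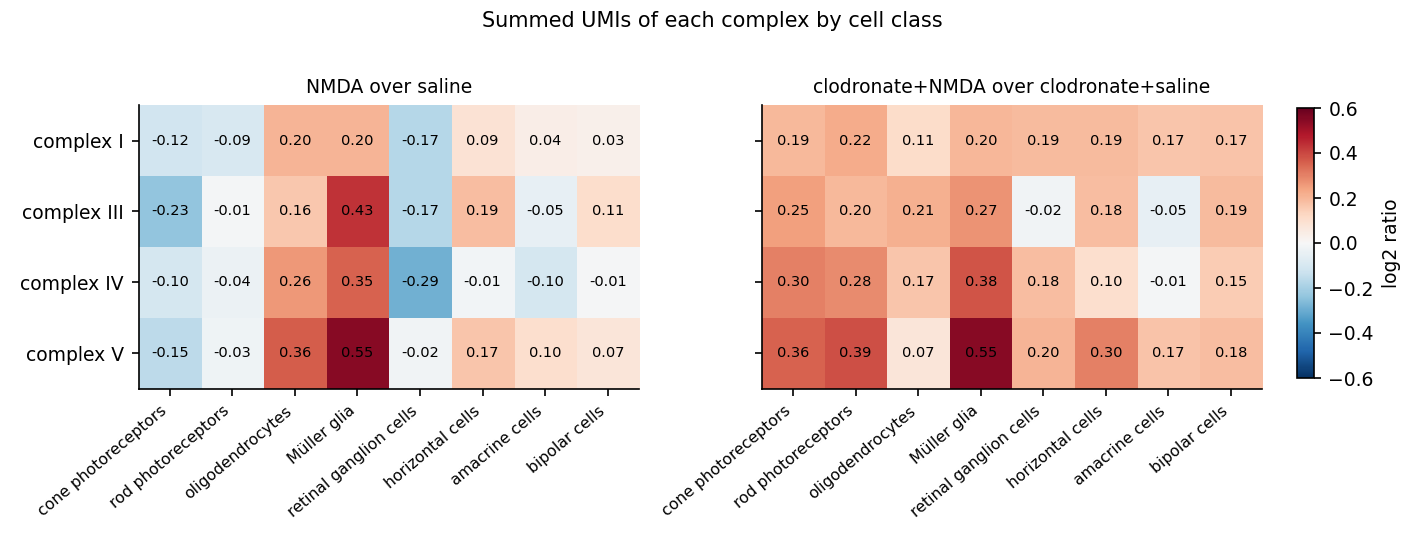
Log2 ratio of the summed UMIs of complexes I, III, IV and V (rows) in each cell class (columns), NMDA over saline on the left and clodronate+NMDA over clodronate+saline on the right. Complex V in MG is at 0.55 in both panels. Cones, rods and retinal ganglion cells lie below 0 in all 4 complexes on the left.

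With clodronate+NMDA the shares were higher than with NMDA alone in most classes, not in MG alone. The summed log2 ratio was 0.14 (0.13 to 0.15) in bipolar cells, 0.23 (0.20 to 0.27) in cones, 0.22 (0.19 to 0.26) in rods, 0.21 (0.16 to 0.26) in retinal ganglion cells, 0.03 (0.02 to 0.05) in amacrine cells and 0.03 (-0.01 to 0.06) in horizontal cells. Oligodendrocytes, with 20 cells in clodronate+NMDA, were at -0.17 (-0.23 to -0.10). In bipolar cells 1 of 72 members, *NDUFAF7*, was at least 1.5-fold higher, where 6.49% of all genes were, and 0 were lower, where 9.66% were. The value of 0.12 in MG was thus no larger than in bipolar cells. Markers of other cells differed in these bipolar cells too. The MG list summed to 752 CPM in clodronate+NMDA and 1550 CPM in NMDA, the cone list to 596 and 1050 CPM, the rod list to 119 and 450 CPM and the erythrocyte list to 2.29 and 1877 CPM, and their part in the result was not tested. Of these lists, only the erythrocyte list had markers at 0, 3 of 5 in clodronate+NMDA and 1 of 5 in NMDA. With clodronate+saline, compared with saline, the sums were 0.02 in bipolar cells, -0.05 in amacrine cells, -0.08 in horizontal cells, -0.10 in rods, -0.11 in retinal ganglion cells, -0.18 in cones and -0.02 in oligodendrocytes. With TMM scaling the sum in bipolar cells was -0.039. In bipolar cells the share was close between the 8 clusters, at 1.80% to 2.04% over all libraries.

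Other mitochondrial genes were counted in MG in the same way. For NMDA over saline, the 12 mitochondrially encoded genes of the pathway with at least 50 UMIs had a median of 0.43, with 3 at least 1.5-fold higher and 0 lower, where 26.0% of all genes were higher and 23.6% lower. Together the 13 such genes made 2.67% of MG UMIs in clodronate+NMDA, 2.26% in NMDA, 2.09% in clodronate+saline and 1.72% in saline. The limit on mitochondrial UMIs per cell acts on the same quantity. Genes of the tricarboxylic acid cycle and pyruvate dehydrogenase had a median of 0.56 (8 of 18 higher, 2 lower), those of the mitochondrial ribosome 0.35 (18 of 65 higher, 1 lower), assembly factors and carriers outside the 73 genes 0.37 (9 of 28 higher, 5 lower), and regulators of mitochondrial biogenesis 0.52 (3 of 7 higher, 1 lower). Glycolysis was at -0.23, with 1 of 13 genes higher and 3 lower. The medians of the mitochondrial lists lay above that of all genes, 0.07, and the median of glycolysis below it. For the mitochondrially encoded genes, 3 of 12 higher was close to the share of all genes, as was 18 of 65 for the mitochondrial ribosome. For glycolysis, 3 of 13 lower was also close to the share of all genes, 23.6%, and 1 of 13 higher was below theirs, 26.0%.

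In MG of the clodronate-treated pair the medians were 0.40 for the mitochondrially encoded genes, 0.18 for the tricarboxylic acid cycle, 0.10 for the mitochondrial ribosome, 0.25 for assembly factors and carriers, -0.29 for the biogenesis regulators (over 4 genes) and -0.54 for glycolysis, with 6 of 13 glycolytic genes lower and 1 higher, where 18.6% of all genes were lower and 19.0% higher. The median of glycolysis was also below 0 in neurons of this pair, at -0.41 in bipolar cells and -0.67 in amacrine cells. For clodronate+saline over saline in MG, glycolysis was at 0.33 and the mitochondrially encoded genes at 0.22. Between clodronate+NMDA and NMDA they were at 0.08 and 0.27, and the mitochondrial ribosome was at -0.16.

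Microglia were too few for genes to be described. Their summed share was 2.47% (2.35 to 2.60) in 28 barcodes of NMDA and 2.88% (2.67 to 3.10) in 23 barcodes of saline. The value in NMDA lay within the range of the 8 classes of that library, and the value in saline was above its highest class, cones at 2.80%.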

How the data were processed

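Dissociated retinas of wild-type chicks were measured as 4 droplet libraries, 1 per treatment. The deposited counts are UMIs per gene and barcode, made by the authors with Cell Ranger 7.0.1 and, per the submitters' processing notes, the GRCg7b genome. The values are whole numbers and were not normalized. Positions are from RefSeq GRCg7b, where 69 of 73 members matched by symbol.

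Barcodes were kept when they had 200 to 2500 genes and mitochondrial UMIs of 5% or less. Their UMIs were scaled to 10000 UMIs, log-transformed and clustered (2000 variable genes without members, 10 principal components, 20 neighbours, Leiden resolution 0.8; leidenalg 0.10.2, igraph 0.11.9, scikit-learn 1.9.0, Python 3.11.15). A cluster took the name of the list with most markers among its 10 leading genes, if at least 3 of that list's markers were raised more than 2-fold and seen in over 5% of its cells. It stayed unnamed where 50% or more of another list was also raised, cones and rods apart. Scrublet (scanpy 1.11.5) called at most 3 doublets in a library and so had not worked; no cell was removed by it. UMIs were summed per class and library. Log2 ratios of CPM were taken with exact conditional binomial 95% intervals (scipy 1.17.1), which cover counting error only, as do the Poisson intervals of levels. Genes needed 50 UMIs over a pair to be called at 1.5-fold. The shares called over all genes used a pseudocount of 0.5 and were not matched to the members in UMIs. There were no replicates, and no test across the libraries was run. The ratio and its interval were tested on simulated counts. These held counting error alone, so the check does not cover differences between libraries or between cells.

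The genes named were the isoform pairs, the 8 members at each end of a comparison in MG ranked by the bound nearest 0, the member with most UMIs of each complex and the 3 that lead each class. The members and lists were chosen with earlier results of these data known. The comparison of clodronate+NMDA with clodronate+saline was added to the 3 planned. Alternatives were other limits on cells, resolution, scalings (TMM of edgeR 4.0.16), minimums and folds.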

Additional observations from a re-analysis of the deposited data

Results flagged for a closer look

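Opposite signs were seen between cell classes under the same comparison, with both intervals off 0. None of these differences was tested. For NMDA over saline, where MG were at 0.36, cones were at -0.14, rods at -0.042 and retinal ganglion cells at -0.15. The signs of rods and retinal ganglion cells changed under other limits on cells, as given below. For clodronate+saline over saline, where MG were at 0.12, cones were at -0.18, rods at -0.10, retinal ganglion cells at -0.11, horizontal cells at -0.082 and amacrine cells at -0.052. This MG value was much smaller with TMM scaling, as given below. Between clodronate+NMDA and NMDA, where MG were at 0.12, oligodendrocytes were at -0.17. That class pooled clusters at 2.62% and 3.13% in NMDA. In clodronate+NMDA it held 20 cells, at 2.54%. The part of the cluster make-up in this difference was not tested.

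The sign also differed between the pairs of libraries that differ by NMDA. In clodronate+NMDA over clodronate+saline, cones were at 0.275, rods at 0.28 and retinal ganglion cells at 0.17, opposite to their values for NMDA over saline. The signs were not opposite in rods without the limit on mitochondrial UMIs, nor in retinal ganglion cells without the upper limit on genes per cell.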

How the results depend on the processing

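The sum in MG for NMDA over saline (0.36) stayed above 0 under every alternative run, at 0.38 without an upper limit on genes per cell, 0.32 without a limit on mitochondrial UMIs, 0.31 at resolution 0.4, 0.31 with TMM scaling, 0.44 with CPM over genes other than hemoglobin, mitochondrial and ribosomal genes, and 0.34 as a mean over cells. The cells named MG were not the same in each alternative. In NMDA, 386 MG were named above, 656 without an upper limit, 584 without a mitochondrial limit and 756 at resolution 0.4. In the same order, saline held 811, 837, 822 and 892 MG, and clodronate+NMDA held 343, 307, 429 and 396. For clodronate+NMDA over clodronate+saline (0.35) the same alternatives, except resolution 0.4, gave 0.40, 0.32, 0.32, 0.43 and 0.28. For clodronate+saline over saline (0.12) resolution 0.4 gave 0.10, TMM scaling 0.021 and CPM over other genes 0.11. For clodronate+NMDA over NMDA (0.12), no upper limit gave 0.14, TMM scaling 0.03 and the mean over cells 0.079. TMM scaling reversed NMDA over saline in amacrine cells (-0.062) and clodronate+saline over saline in bipolar cells (-0.039), and the mean over cells reversed clodronate+NMDA over NMDA in amacrine cells (-0.015). Without a limit on mitochondrial UMIs, rods reversed to 0.091 for NMDA over saline and -0.01 for clodronate+NMDA over NMDA. Without an upper limit on genes retinal ganglion cells reversed to 0.06 for NMDA over saline. Those were largely other cells, 499 in NMDA and 385 in saline, against 74 and 166 with the limit. In amacrine cells, NMDA over saline moved to 0.078 (no upper limit), 0.051 (CPM over other genes) and 0.054 (mean over cells), clodronate+saline over saline to -0.021, -0.10 and -0.067 (no upper limit, TMM scaling, mean over cells), clodronate+NMDA over NMDA to 0.048 (TMM scaling), and clodronate+NMDA over clodronate+saline to 0.085 (TMM scaling) and 0.14 (CPM over other genes). In bipolar cells, NMDA over saline moved to 0.031 with TMM scaling, and clodronate+NMDA over NMDA to 0.093, 0.12 and 0.12 with TMM scaling, CPM over other genes and the mean over cells. The cause of these shifts was not tested.

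Members called in MG were also counted under other settings. The share of all genes was not counted under them, so these counts have no background to be read against. Of members in MG, 3 instead of 17 were past 2-fold higher for NMDA over saline. Members called lower there numbered 0 without an upper limit, at resolution 0.4, with at least 200 UMIs or past 2-fold, and 2 with TMM scaling, instead of 1. For clodronate+saline over saline 1 instead of 0 was higher without an upper limit, without the 5% of cells with the highest Scrublet scores (an alternative chosen after seeing the data) or with at least 10 UMIs. For clodronate+NMDA over NMDA, the members higher numbered 0 without a limit on mitochondrial UMIs, with TMM scaling or past 2-fold and 2 with at least 10 UMIs, and those lower 2 without a limit on mitochondrial UMIs, at resolution 0.4 or with at least 10 UMIs and 0 with at least 200 UMIs or past 2-fold. Of 512 values for single named members, 27 moved outside their interval and 2 reversed. Both reversals came without an upper limit on genes, *NDUFS4* (0.03) and *COX4I1* (0.08) for clodronate+NMDA over clodronate+saline. Under that setting 18 others moved. Keeping members among the variable genes or leaving out Scrublet doublets did not change the number of MG. All 64 values of each stayed within their interval, so these settings could show little. The labels give no replicate numbers to pair, and no blocked fit over the pairs of libraries was run. Without the 5% of cells with the highest Scrublet scores, cones were above rods in 2 of 4 libraries. Members with few UMIs, such as *NDUFAF5*, have intervals too wide to place them.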
